A study of Mus musculus with 22 samples.

Results

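The microRNAs (miRNAs) of feces were compared with those of blood serum in X-irradiated mice. The comparison used all 4 arrays of irradiated feces and all 4 arrays of irradiated serum, 8 of the 22 arrays of a study that also measured small intestine and unirradiated samples. All mice were male and 8 weeks old, and the irradiated groups described first below received 10 Gy at 1.0 Gy per minute. Feces were put straight into tubes, and serum was separated by centrifugation from blood taken from the heart. The unirradiated groups used for a second comparison held 4 feces arrays and 2 serum arrays (0 Gy). The labels give neither a strain nor the time between irradiation and collection, and nor do they state that each sample is a separate animal. The p-values therefore speak only of the spread seen among these samples, and technical variation may be included in it. An array measured the RNA of 1 sample in a single colour (Cy3) with probes for 1881 mouse miRNAs. All feces arrays lay on one slide and all serum arrays on another, and the effects of slide and of sample type cannot be told apart.

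miRNAs are short RNAs that guide Argonaute proteins to messenger RNAs, chiefly through pairing of the seed, bases 2 to 8 of the mature strand. They leave cells in vesicles, in protein complexes and in dying cells, and part of what leaves survives in body fluids and in stool. Serum miRNAs derive in large part from blood cells, with shares from the liver, the endothelium and other tissues. Fecal miRNAs come from shed epithelial cells and other cells of the gut wall, and stool also holds RNA of bacteria and food. In RNA of a whole sample, fewer source cells and less miRNA per cell cannot be told apart.

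The mature sequences below belong to miRNAs described in detail further on. They are the RefSeq sequences (GRCm38.p6), 5′ to 3′, with the seed in capitals. The first set was detected on all 4 feces arrays and on no serum array. It holds 8 miRNAs of gut epithelium, which share 4 seeds (miR-192 with miR-215, miR-194 alone, the miR-200b group and the miR-200a group), and miR-21a-5p.
miR-192-5p: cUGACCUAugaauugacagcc
miR-215-5p: aUGACCUAugauuugacagac
miR-194-5p: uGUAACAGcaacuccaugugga
miR-200b-3p: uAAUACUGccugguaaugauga
miR-200c-3p: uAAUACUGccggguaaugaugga
miR-429-3p: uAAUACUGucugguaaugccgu
miR-200a-3p: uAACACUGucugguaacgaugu
miR-141-3p: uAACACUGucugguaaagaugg
miR-21a-5p: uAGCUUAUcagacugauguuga
The second set was detected on all 4 serum arrays, with a higher signal there than in feces before any scaling. miR-30d-5p, miR-375-3p, miR-145a-5p and miR-486a-5p, the one furthest toward serum, belong to it by name only.
miR-30a-5p: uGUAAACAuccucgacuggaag
miR-22-3p: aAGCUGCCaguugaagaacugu
miR-342-3p: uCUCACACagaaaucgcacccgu
miR-193b-3p: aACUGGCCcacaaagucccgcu
miR-205-5p: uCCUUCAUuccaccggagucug
The third set holds the arms of the miR-574 hairpin, which differed in opposite directions after scaling.
miR-574-5p: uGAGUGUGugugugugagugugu
miR-574-3p: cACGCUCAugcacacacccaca

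Irradiated feces gave more detected miRNAs than irradiated serum. Detection on an array required that 1 or more probes of the miRNA stood well above background, each in no fewer than 50% of the spots. Feces arrays detected 469 ± 23.3 miRNAs and serum arrays 154.5 ± 23.3 (mean ± SD, n = 4 each). The arrays of the sample types did not overlap, with 445 to 494 detected in feces and 131 to 176 in serum, and the difference of 314.5 gave an exact two-sided permutation p of 0.0286, the smallest that 4 against 4 allows. All 4 feces arrays detected 400 miRNAs and all 4 serum arrays 123, of which 105 were shared. A further 250 miRNAs were detected on every feces array and on no serum array, against 9 with the opposite pattern. No array of the 8 detected 1311 miRNAs. Serum arrays were dimmer throughout: the summed signal of their detected miRNAs was 20862 to 52589, against 420680 to 631450 in feces. The background differed little, since the mean of the negative control spots was 2.32 to 2.87 in feces and 3.21 to 3.32 in serum, and the dimmest detected probe had a signal of 10.9 to 12.5 in feces and 9.57 to 11.7 in serum. Within each sample type, replicates 1 and 3, which lay in slide column 3, had a higher summed signal than replicates 2 and 4 in column 4. No spot was saturated. A miRNA not detected in serum thus had only an upper limit there, on dimmer arrays, and no measured level.

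**Figure D1:**
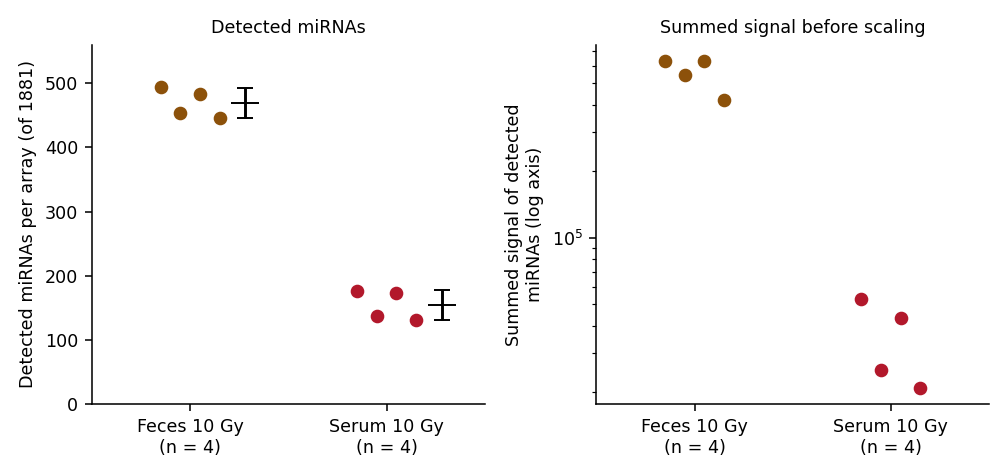
Left, miRNAs detected on each array of irradiated feces and irradiated serum, with the mean and SD of 4 arrays beside the points. Right, the summed signal of the detected miRNAs of each array on a log axis. Feces arrays lie at 445 to 494 detected miRNAs and serum arrays at 131 to 176.

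For the comparison of levels, each array was divided by the 75th percentile of its own signals for the 105 shared miRNAs, those that all 8 arrays detected. The percentile was 1866 to 2667 in feces and 130 to 416 in serum. Lower values were set to a floor (log2 of -5.95), and log2 was taken. The floor is the median over arrays of the dimmest scaled signal still detected on each. It lay above some detected feces signals: let-7i-5p, detected on all 4 feces arrays, was at the floor on 3. Some undetected serum readings lay above it: miR-680, detected on 0 serum arrays, was at the floor on 0 of them. A difference is the log2 scaled level in feces minus that in serum. Of 421 miRNAs detected on at least 4 of the 8 arrays, 283 (67.2%) passed in limma at a Benjamini-Hochberg adjusted p below 0.05. Of these, 169 (40.1% of those tested) were higher and 114 (27.1%) lower in feces. The arrays of the sample types did not overlap for 269 miRNAs (63.9%). Across miRNAs, arrays of the same type correlated at r between 0.94 and 0.98 in feces and between 0.95 and 0.98 in serum, and arrays of different types at 0.48 to 0.59. These correlations are descriptions, since the arrays of a type share a slide.

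Not every call rests on a measured level on each side. Of the 169 higher in feces, 119 were detected on no serum array. For those a fold is a lower bound, the feces mean against the lowest signal that counted as detected in serum, and 32 of them had a bound above 1. The other 87 have no fold. Of the 114 lower in feces, 34 were detected on no serum array, so that a background reading from a dim array was scaled above a real feces signal. Those 34 are not read as lower in feces. The calls whose size is read below are therefore the 27 higher and 47 lower among the 105 miRNAs detected on all 8 arrays, the 32 with an "at least" fold, and further miRNAs detected on all 4 serum arrays, 65 lower in all (15.4% of those tested) with 59 higher (14%). This reading was chosen after the data were seen. For miRNAs at the floor on every array of a type, the standard error (SE) is too small, because the floor has no spread.

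**Figure D2:**
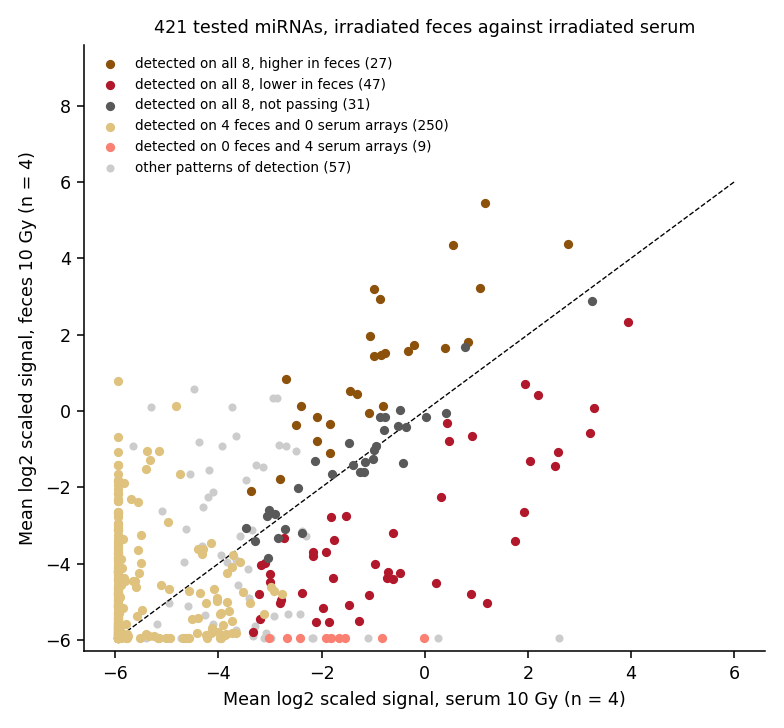
Mean log2 scaled level in irradiated feces (vertical) against irradiated serum (horizontal) of the 421 tested miRNAs, coloured by the arrays that detected them and, for the 105 detected on all 8, by the call. The dashed line marks equal levels. Points on the lower and left edges lie at the floor, and 250 of the miRNAs were detected on 4 feces and 0 serum arrays.

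Most tested miRNAs of the gut epithelial list were detected in irradiated feces and not in irradiated serum, where they have only an upper limit. miR-192-5p, miR-194-5p and miR-215-5p are abundant in the absorptive epithelium, and the miR-200 family (miR-200a, miR-200b, miR-200c, miR-141 and miR-429) maintains the epithelial state by repressing the transcription factors Zeb1 and Zeb2. All 8 were detected on every feces array, none was detected on any serum array, and all 8 passed as higher in feces. The unscaled signal of miR-192-5p was 1019, 1431, 582 and 1090 in feces, against 6.05, 4.37, 13.9 and 1.60 in serum. That of miR-194-5p was 795.5, 972, 312 and 600 in feces, against -4.40, -4.10, -3.53 and -3.67 in serum. Feces thus held clear signal in every sample, and the serum readings lay around the background. The differences were 4.04 ± 0.49 for miR-192-5p (± SE, limma adjusted p = 0.000299) and 3.99 ± 0.37 for miR-194-5p (limma adjusted p = 7.16e-05). Single probes gave smaller differences, 2.99 to 3.61 for miR-192-5p and 1.98 to 3.59 for miR-194-5p. As lower bounds feces held at least 2.70-fold more miR-192-5p and at least 1.34-fold more miR-194-5p.

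The rest of these families followed at lower signal. miR-215-5p, which shares its seed with miR-192-5p, had 183.5, 182, 63.0 and 126 in feces, against -3.06 to -1.82 in serum, and was at least 1.02-fold higher in feces. miR-200b-3p had 396, 581, 208.5 and 447 in feces, against -3.63 to -1.16 in serum. miR-200c-3p had 169, 246, 96.6 and 181 in feces and -8.33 to -6.06 in serum. The remaining members were alike in this. miR-200a-3p reached 147 to 422.5, miR-141-3p 115 to 355 and miR-429-3p 111 to 325 in feces. None of the miR-200 family had a bound above 1. All 8 had their lowest feces signal on replicate 3. In irradiated small intestine, given here for scale, the same 8 had signals of 1410 to 22693. Over the 8, the direction held under 6 scalings (below) but not after a normexp background correction with an offset of 50, under which miR-192-5p alone stayed above 0 (0.42) and 6 of the 8 passed as lower. With the same correction and no offset, which was added after the data were seen, the difference was 2.24 for miR-192-5p, 2.28 for miR-194-5p and 0.73 for miR-200c-3p, and miR-215-5p did not pass (0.19).

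Not all miRNAs on the epithelial list were higher in feces. The list has 17 members, of which 11 were tested. Of these, 8 were higher (72.7%, against 40.1% of all tested) and 3 lower (27.3%, against 27.1%). The median difference of the 11 was 2.49, against 0.27 over all 421 tested. The summed signal of the list was 1745 to 4744 in feces and 251 to 950 in serum. The 3 lower members were miR-375-3p, miR-205-5p and miR-378a-3p. miR-375-3p, an miRNA of endocrine cells and secretory epithelium, had 18.7, 27.9, 10.1 and 13.7 in feces, where 2 arrays detected it, against 225, 246, 520 and 157 in serum. miR-205-5p, known from stratified epithelium such as skin, had 0.36 to 4.12 in feces with no array detecting it, against 73.7, 65.8, 259.5 and 23.4 in serum. After scaling miR-205-5p was at least 12.8-fold higher in serum, taking the smallest fold over probes with feces at the floor. Both were higher in every serum sample than in any feces sample without scaling. miR-378a-3p was detected on all 8 arrays, with 64.3 to 107 in feces and 58.1 to 202.5 in serum, and its unscaled signals overlapped. miR-31-5p, miR-203-3p, miR-802-5p and miR-183-5p were detected on none of the 8 arrays.

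**Figure D3:**
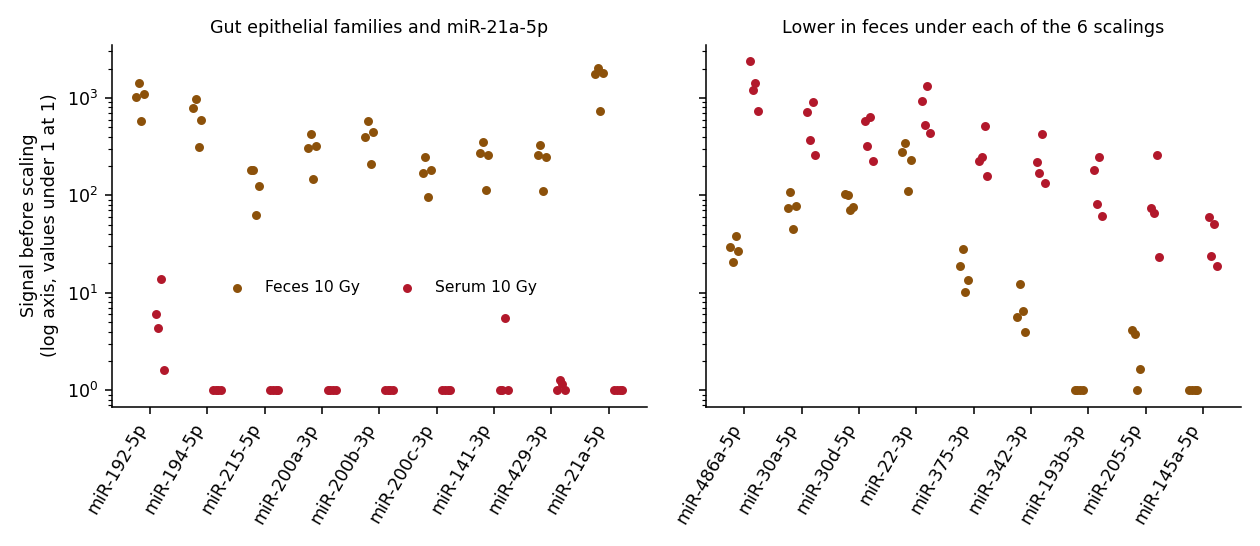
Unscaled signal on each array (log axis, values under 1 drawn at 1) of irradiated feces (left of each pair) and irradiated serum (right). Left panel, the 8 gut epithelial miRNAs and miR-21a-5p, which were detected on all 4 feces and 0 serum arrays. Right panel, 9 miRNAs that passed as lower in feces under each of the 6 scalings; each has its 4 serum points above its 4 feces points.

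miR-21a-5p, a miRNA abundant in most tissues and raised by many forms of stress and injury, was among the miRNAs furthest above serum. Its signal was 1780, 2050, 729 and 1805 in feces, against -0.03, -0.56, -0.60 and -2.19 in serum. The difference was 5.26 ± 0.38 (limma adjusted p = 2.31e-05), against 3.31 to 4.83 by single probe, and the lower bound at least 3.36-fold. The size rests on the floor, at which serum lay, and leaving out 1 array at a time gave differences of 4.22 to 7.46, all passing. It was detected on all irradiated intestine arrays, with 22350 to 29660. The largest lower bound belonged to miR-7052-5p, for which no function is given here. It had 6787, 4801, 2664 and 3354 in feces and -5.97 to -3.19 in serum, at least 17.4-fold higher in feces, while irradiated intestine did not detect it, with readings of -3.38 to 6.03. miR-680 followed with at least 5.66-fold and miR-3098-5p with at least 4.59-fold. The lower bounds of all 32 ran from 1.01 to 17.4, and 11 of the 32 are 5p strands numbered between miR-6896 and miR-7119, which make up 80 of the 421 tested. Of the 59 higher calls whose size is read, which include these 32, 38 kept the sign after normexp correction with the offset and 27 passed. Of the 27 passing, 21 were detected on all 8 arrays, so that most of the 32 did not pass.

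miR-486a-5p, a miRNA made in red blood cell precursors, stood furthest toward serum. Its signal was 29.6, 20.5, 38.1 and 27.0 in feces, against 2392, 1206, 1426 and 729 in serum. Serum was higher in every sample although its arrays were dimmer. The difference was -8.55 ± 0.12 (limma adjusted p = 1.56e-08), against -7.76 to -7.31 by single probe. All 4 feces values lay at the floor after scaling, so the size depends on the floor: it was -9.17 to -7.72 when 1 array was left out and -5.55 without scaling. The other red cell markers were little detected at 10 Gy. miR-451a, the other miRNA characteristic of that lineage, was detected on 0 feces arrays and 1 serum array (11.4, 13.2, 31.6 and 2.40 in serum). Without irradiation it had -0.35 to 4.66 in feces, against 375 and 144 in serum, where both arrays detected it. miR-144-3p and miR-363-3p were detected on no array. miR-16-5p was detected on all 4 feces arrays (20.7 to 59.5) and on no serum array (-0.78 to 0.63), and it did not pass (limma adjusted p = 0.128). Of the 5 red cell list members on the array, 2 were tested and 1 passed, as lower in feces, with a summed signal of 58.8 to 80.7 in feces and 731 to 2404 in serum.

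Among the largest differences toward serum were also miR-30a-5p, miR-30d-5p, miR-22-3p, miR-342-3p, miR-193b-3p, miR-212-3p, miR-24-3p and miR-5100. miR-30a-5p had 74.95, 109.5, 45.3 and 77.7 in feces, against 712, 369, 902 and 261 in serum, and was detected on all 8 arrays. Its difference was -6.23 ± 0.36 (limma adjusted p = 8.57e-06). miR-30d-5p, which has the same family name, had 103, 99.8, 70.4 and 76.7 in feces, against 581, 324, 637 and 223 in serum, a difference of -5.69 ± 0.22 (limma adjusted p = 1.22e-06). For both, the lowest serum sample lay above the highest feces sample before any scaling. miR-22-3p, a miRNA of muscle and blood cells among others, had 279, 344, 110 and 233 in feces, against 919, 522, 1341 and 440 in serum (difference -5.17 ± 0.44, limma adjusted p = 4.85e-05). miR-24-3p, one of the miR-23a cluster, had 114, 131, 67.7 and 120 in feces, against 326, 97.6, 692 and 179 in serum, so that its unscaled signals overlapped.

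The 9 miRNAs detected on every serum array and on no feces array were at least 4.95-fold to at least 27.4-fold higher in serum. The bound is the smallest fold over the probes of a miRNA, with feces set to the floor, and it applies to scaled signals. Without scaling the differences of the 9 were -4.53 (miR-342-3p) to -1.65 (miR-328-3p). Most were smaller in size than the log2 of the bound, for miR-140-3p -3.01, against 3.92, and for miR-145a-5p -2.01, against 2.72. For miR-193b-3p (-3.85, against 3.48) and miR-5118 (-2.76, against 2.31) they were larger. miR-342-3p, which is enriched in lymphocytes, had the largest bound. It gave 5.59, 12.2, 6.57 and 3.998 in feces, against 222, 168, 424 and 134 in serum. miR-193b-3p had -3.92 to -1.90 in feces, against 183, 80.6, 245 and 60.8 in serum, at least 11.2-fold higher in serum. miR-140-3p, best known from cartilage, was at least 15.1-fold higher in serum, and miR-145a-5p, a miRNA of smooth muscle and a p53-responsive one, at least 6.57-fold, with -6.84 to -5.23 in feces and 59.5, 24.0, 50.4 and 18.8 in serum. The other members were miR-205-5p, miR-208a-5p, miR-5118, miR-326-3p and miR-328-3p. All 9 also passed under each of the 6 scalings, and 5 of the 9 were detected on all irradiated intestine arrays.

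Within families that share a seed or a cluster, members differed in where they were detected. In the miR-30 family, whose shared seed is GUAAACA, the difference for miR-30e-5p was -2.58 ± 0.24 (limma adjusted p = 7.89e-05) with 4 feces arrays and 2 serum arrays detecting it, and turned to 0.41 without scaling. Its size is not read, since 2 feces values lay at the floor and the unscaled signals overlapped (18.3 to 42.5 in feces, 10.8 to 45.2 in serum). miR-30b-5p and miR-30c-5p were detected on 3 feces arrays and no serum array (7.50 to 32.6 in feces and 0.18 to 6.10 in serum). In the miR-29 family, with the seed AGCACCA, miR-29a-3p was detected on all 8 arrays, with 172, 245, 72.4 and 153 in feces and 157, 69.5, 252.5 and 54.0 in serum. Its difference was -3.05 ± 0.48 (limma adjusted p = 0.0011), and 0.41 without scaling. miR-29b-3p and miR-29c-3p had 31.5 to 129 and 44.0 to 174 in feces, where all 4 arrays detected them, and 0.95 to 3.21 and 2.55 to 19.9 in serum, where none did. The miR-23a cluster was likewise uneven: miR-23a-3p had 66.1 to 189 in feces and 73.2 to 523 in serum and was detected on all 8 arrays, whereas miR-27a-3p had 76.1 to 212 in feces, where it was detected on 4 arrays, and 1.65 to 14.9 in serum, where it was detected on none. All of these except miR-30b-5p and miR-30c-5p were detected on each feces array, and on serum arrays only some were. After normexp correction miR-29b-3p (-1.10), miR-29c-3p (-1.17) and miR-27a-3p (-1.09) passed as lower in feces, like the others, and without scaling miR-23a-3p did not pass (-0.29, limma adjusted p = 0.649). Over the 6 tested members of the miR-29 and miR-30 families, 1 was higher (16.7%, against 40.1% of all tested) and 4 lower (66.7%, against 27.1%). Their median was -2.81. It became 0.41 without scaling, with 2 higher and 2 lower, and all 6 were lower after normexp correction.

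Members of the let-7 and miR-17/92 families were detected in feces. let-7 miRNAs share the seed GAGGUAG and mark differentiated cells. Of 9 members, 7 were detected on all 4 feces arrays and on no serum array, against 250 of the 1881 miRNAs measured. let-7b-5p had 119, 142, 93.8 and 174 in feces, against 0.48 to 3.604 in serum. Of the 7, 4 passed as higher (57.1%, against 40.1% of all tested) and 3 did not pass, with a median of 0.98. None had a bound above 1, and the signs turned after normexp correction (median -1.05). Of the 4 that passed, let-7b-5p and let-7c-5p did so under each of the 6 scalings. With 1 array left out, let-7b-5p passed in 8 of 8 fits, let-7c-5p in 5, and let-7a-5p and let-7g-5p in 4 each. The miR-17/92 family, with the seed AAAGUGC in miR-17, miR-20a and miR-20b, promotes proliferation. miR-17-5p had 61.6, 77.4, 228 and 83.6 in feces, and miR-20a-5p 74.2, 80.9, 192 and 87.9. Both were detected on no serum array, and both were highest on feces replicate 3, the array on which the epithelial miRNAs were lowest. miR-92a-3p, of the same cluster and abundant in red blood cells, went the other way, with 17.4, 12.2, 3.59 and 10.7 in feces, against 36.3, 56.0, 121 and 22.1 in serum (difference -3.78 ± 0.51, limma adjusted p = 0.000492). Of the 6 tested, 3 were higher (50%, against 40.1% of all tested) and 1 lower (16.7%, against 27.1%). After normexp correction 0 were higher and 6 lower. miR-17-5p, miR-20a-5p and miR-20b-5p passed in 4 of the 8 fits that left out 1 array.

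Markers of several source tissues were missing from the serum arrays. miR-122-5p, the dominant miRNA of hepatocytes, was detected on none of the 8 arrays (-0.47 to 5.66 in feces and -3.14 to -0.93 in serum). miR-126a-3p, characteristic of endothelium and platelets, read -5.53 to -2.57 in feces and -2.74 to -1.41 in serum. miR-223-3p, of myeloid cells and platelets, read 13.6 to 21.1 in feces and 11.1 to 14.5 in serum and was detected on no array, as were miR-142a-3p and miR-150-5p. Of the 10 platelet and leukocyte miRNAs only miR-342-3p was tested. Of 12 miRNAs of muscle and mesenchyme 3 were tested, all lower in feces: miR-145a-5p, miR-133b-3p (difference -4.24 ± 0.49, limma adjusted p = 0.000215) and miR-133a-3p, whose difference of -2.91 ± 0.65 (limma adjusted p = 0.00565) was 0.55 without scaling. miR-133b-3p did not pass without scaling either (-0.78, limma adjusted p = 0.13), which left miR-145a-5p. The size for miR-133a-3p is not read, since it was detected on only 3 serum arrays and its unscaled signals overlapped. Signal of the muscle list summed to 106 to 144 in feces and 66.9 to 435 in serum. No liver, pancreatic, endothelial or neuronal member was detected on enough arrays to be tested. The part that the low signal of the serum arrays has in these readings was not tested.

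Few miRNAs known to respond to p53, the main transcription factor of the DNA damage response, could be compared: 3 of the 7 on the array were tested, and 1, miR-145a-5p, passed, as lower in feces. miR-34a-5p, its direct target, had 60.01, 41.4, 23.8 and 50.5 in feces, where all 4 arrays detected it, against 0.04 to 2.20 in serum, where none did. It did not pass (limma adjusted p = 0.135), with 1 of its feces values at the floor. It did pass as higher without scaling (2.30) and with control spots (0.90). Without scaling, and with the floor at 50% of its value, 2 of the 3 tested were higher and 1 lower. After normexp correction 0 were higher and 3 lower. miR-34b and miR-34c were detected on no array. On the list of 10 miRNAs tied to radiation and DNA damage, 9 were tested, with a median of 0.68. Of these, 3 (33.3%, against 40.1% of all tested) were higher: miR-21a-5p, miR-574-5p and miR-27a-3p. Another 4 (44.4%, against 27.1%) were lower: miR-22-3p, miR-24-3p, miR-23a-3p and miR-574-3p. The counts were 5 higher and 1 lower without scaling (median 2.92), and 2 higher and 6 lower after normexp correction (median -1.09).

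Among the 105 miRNAs detected on all 8 arrays, 27 were higher in feces and 47 lower (70.5% passing, against 67.2% of all tested). miR-6366 had 54740, 106600, 210600 and 96740 in feces, against 705.5, 373, 587 and 355 in serum, and was 19.6-fold higher in feces after scaling (difference 4.29 ± 0.40, limma adjusted p = 7.60e-05). The next names, miR-483-5p and miR-188-5p, were picked after their values were seen. miR-483-5p, from an intron of the growth factor gene Igf2, had 36960, 24980, 21030 and 11760 in feces, against 195, 81.8, 115 and 79.6 in serum, 18.1-fold higher in feces. miR-188-5p had 24950, 21310, 14170 and 14710 in feces, against 173, 77.9, 190 and 75.4 in serum, 14.1-fold higher. For each, every feces sample exceeded every serum sample, and all 27 passed as higher under each of the 6 scalings. After normexp correction 21 of the 27 still passed as higher. The 47 lower depended on the scaling, with 44 to 47 passing under the percentile scalings and quantile normalization, 25 under control spots and 4 without scaling (miR-30a-5p, miR-30d-5p, miR-22-3p and miR-5100).

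The arms of miR-574 went in opposite directions. It was the only hairpin with both arms detected on all 8 arrays, and it was chosen with its values already known. miR-574-5p had 4577, 1906, 1952 and 2792 in feces, against 89.7, 18.7, 36.2 and 46.9 in serum. miR-574-3p had 91.4, 64.0, 58.5 and 56.3 in feces, against 59.9, 33.9, 126 and 37.0 in serum. The 5p arm was far brighter in feces in every sample, and the 3p arm had overlapping signals. After scaling the difference was 2.54 ± 0.45 for the 5p arm (limma adjusted p = 0.00191) and -3.21 ± 0.36 for the 3p arm (limma adjusted p = 0.000204). The gap between the arms was 5.74 on the log2 scale, a value that dividing an array by a constant cannot change, and 5.82 after quantile normalization. The sign of the 3p arm depended on the scaling, its difference being 0.26 without it. The 5p strand is a run of GU repeats, and irradiated intestine gave signals of 419 to 1479 for it and 49.8 to 77.6 for the 3p strand.

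Numbers from miR-6896 to miR-7119 were given mostly to mirtrons, miRNAs cut from short introns by the splicing machinery. Of their 206 5p strands on the array, 80 were tested, with a median difference of 0.86. In feces 42 were higher (52.5%, against 40.1% of all tested) and 10 lower (12.5%, against 27.1%). Detection on all 4 feces and no serum array was seen for 46 of the 80, against 250 of all 421 tested. Of the 204 3p strands, 24 were tested, 1 was higher (4.17%) and 13 lower (54.2%), but 11 of those 13 were detected on no serum array. The medians went to 3.75 for the 5p and 2.01 for the 3p strands without scaling, and to -0.99 and -1.20 after normexp correction. Of the 61 miRNAs named miR-466, miR-467, miR-669 or miR-297, many of them encoded in an intron of Sfmbt2, 11 were tested. Of these, 5 were higher (45.5%, against 40.1% of all tested) and 0 lower (against 27.1%). After normexp correction 1 was higher and 10 lower. miR-466i-5p, the only one detected on all 8 arrays, had 10170, 4997, 5204 and 6407 in feces, against 231, 52.2, 96.5 and 125 in serum (difference 2.41 ± 0.40, limma adjusted p = 0.00147).

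Base composition was described without a test. Mature sequences were found for 1608 of the 1881 miRNAs. They covered 149 of the 169 higher in feces, 97 of the 114 lower and 87 of the 105 detected on all 8 arrays. Among those with a sequence, the median share of G was 43.5% in the higher and 27.3% in the lower. It was 36.9% in the tested miRNAs that did not pass, against 26.3% over the array. The lower here include calls that are not read as lower in feces. The median GC content was 59.1% in the higher and the lower, 61.9% in those that did not pass and 52.2% over the array. The 105 detected on all 8 arrays had a median of 47.6% G and 63.6% GC, with 51% G among the higher and 44.5% G among the lower of them. Of 28 seeds with at least 2 tested members, 15 had at least 2 calls in 1 direction and none in the other, and 5 had calls in both directions. These counts take every call, whether or not it is read as lower in feces. Agreement within a seed was not tested against chance, and 67.2% of all tested miRNAs passed.

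The balance of higher and lower calls depended on how the dim serum arrays were brought to scale. Percentile and quantile scalings gave 163 to 169 higher and 102 to 114 lower. Scaling to the control spots named dmr gave 214 higher and 60 lower, and no scaling 374 higher and 20 lower, with the median over all tested miRNAs moving to 1.02 and 2.90. The dmr spots themselves read lower on serum arrays than on feces arrays, by unequal amounts, and the cause was not tested. Across the 6 scalings 152 miRNAs (36.1%) passed as higher every time and 20 (4.75%) as lower every time. The 20 comprise the 9 found on serum arrays only, miR-486a-5p, miR-30a-5p, miR-30d-5p, miR-375-3p, miR-22-3p, miR-212-3p, miR-5100, miR-92a-3p, miR-423-5p, miR-8093 and miR-882. Normexp correction turned the balance to 37 higher and 339 lower. That setting starts from the median spot and background intensities and adds an offset of 50. The same correction with no offset gave 94 higher and 174 lower (median -0.38).

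**Figure D4:**
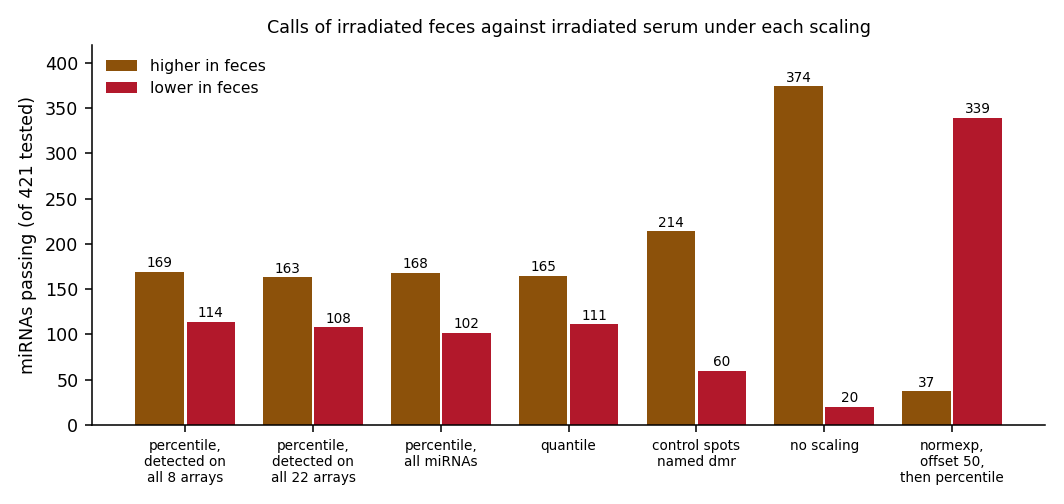
miRNAs of the 421 tested that passed as higher (left bar) or lower (right bar) in irradiated feces against irradiated serum, under 6 scalings and after normexp background correction. Higher calls range from 37 to 374 and lower calls from 20 to 339.

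Most of these calls kept their sign without irradiation. Feces was set against serum at 0 Gy on the same slides, with 4 and 2 arrays, the 0 Gy arrays in columns 1 and 2 and the 10 Gy arrays in columns 3 and 4. Dose therefore goes with slide column, and their effects cannot be told apart. Of the 283 calls at 10 Gy, 273 had the same sign at 0 Gy, 160 of 169 higher and 113 of 114 lower. They include the 34 not read as lower, which all kept the sign, and 113 of the 119 higher calls detected on no serum array. For those, undetected serum readings set the sign at 10 Gy, and a repeated sign does not show a measured difference. Among the 74 calls detected on all 8 arrays, 71 kept the sign. Across the 421 miRNAs the differences at 10 and 0 Gy correlated at r = 0.95, a description over miRNAs measured on shared slides. The epithelial miRNAs were there at 0 Gy too: miR-192-5p had 304 to 2456 in unirradiated feces, against 11.1 and 6.41 in unirradiated serum. miR-486a-5p had 13.7 to 108 in unirradiated feces, against 8698 and 4461 in unirradiated serum.

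A few miRNAs differed between the doses. The feces-serum difference at 10 Gy minus that at 0 Gy passed for 21 of 515 miRNAs (4.08%), with 14 above 0 and 7 below, and 104 passed at an unadjusted p below 0.05. miR-150-3p had the largest. It had 827, 695, 798 and 459 in irradiated feces, against -15.4, -17.9, -14.0 and -21.9 in irradiated serum, and 481, 294, 1925 and 1605 in unirradiated feces, against 26.6 and 34.8 in unirradiated serum. Unirradiated serum thus gave a detected signal in both samples and irradiated serum in none of its 4. Its difference was 6.15 at 10 Gy and 1.07 at 0 Gy, apart by 5.08 ± 0.49 (limma adjusted p = 3.44e-05), where the value at 10 Gy sets a feces level against the floor. Its partner miR-150-5p, a lymphocyte miRNA, was detected on none of the 8 irradiated arrays. miR-486a-5p differed by -9.16 at 10 Gy and -11.11 at 0 Gy (apart by 1.96 ± 0.36, limma adjusted p = 0.0103). miR-7083-5p had 4.89 to 15.6 in irradiated feces, with no array detecting it, and 70.9 to 1895 in unirradiated feces, with serum at or below background at both doses (-3.65 ± 0.61, limma adjusted p = 0.00591).

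Of the 21, only miR-3473f, miR-7216-5p and miR-5130 were detected on all 14 arrays, and miR-7216-5p and miR-5130 are named here after their values were seen. miR-3473f differed by -3.80 at 10 Gy and -6.06 at 0 Gy, miR-7216-5p by 0.27 and 2.07, and miR-5130 by -0.995 and 0.58. The count of 21 was not stable. It was 7 after quantile normalization, 1 without scaling and 6 after normexp correction, and 2 to 51 when 1 array at a time was left out, with 11 of the 14 arrays moving it over 1.5 times. The 3 exceptions were irradiated serum replicate 1, unirradiated feces replicate 3 and unirradiated serum replicate 2. miR-150-3p and miR-344i passed whichever array was left out, but did not pass without scaling (limma adjusted p = 0.713 and 0.0843) or after normexp correction (limma adjusted p = 0.65 for both).

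**Figure D5:**
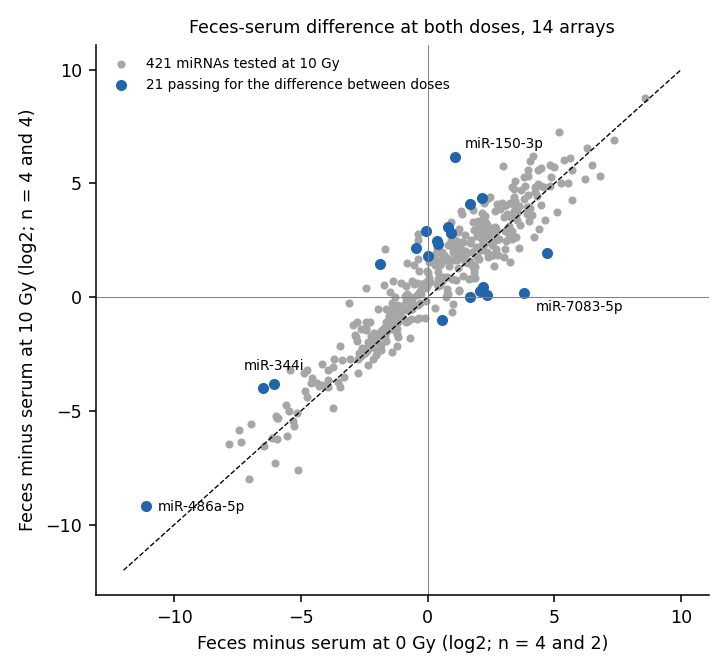
Feces minus serum (log2 scaled level) at 10 Gy against the same at 0 Gy, from 1 fit of 14 arrays. Grey points are the 421 miRNAs tested at 10 Gy, blue points the 21 that passed for the difference between the doses, and the dashed line marks equal differences. miR-150-3p lies at 6.15 and 1.07, and miR-486a-5p at -9.16 and -11.11.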

How the data were processed

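The authors deposited 1 scanner file for every array, made with Agilent Feature Extraction 11.5 according to the submitters' processing notes. The deposited processed signal is an intensity on a linear scale, background-subtracted per spot, with no normalization between arrays stated, per the file headers. Deposited spot flags (well above background, saturation, outliers) were used too, as were the deposited median spot and background intensities for 1 alternative. The array design names mm9, and no coordinates are given. The authors' series table equalled the processed signal within 1% for 100% of the values. Its scale is linear without centring, and the medians of its columns were -1.55 to 2.1.

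Replicate spots were averaged per probe, outlying spots left out, and the probes of a miRNA summed (4415 probes, 1881 miRNAs). Scaling, floor and tests are given in the results. Moderated linear models (limma 3.58.1, R 4.3.3) were fitted to all tested miRNAs with Benjamini-Hochberg adjustment, and an exact permutation test for the number of detected miRNAs. The dose comparison used 1 fit of 14 arrays, scaled over the 101 miRNAs detected on all of them. An "at least" fold divides the brighter type's probe mean by a limit for the dimmer type. The limit averages over arrays whichever was greater, the probe's own signal or that of the dimmest detected probe, and the smallest fold over probes is given, capped at the fitted fold. For miRNAs detected on serum arrays only, feces was set to the common floor, which is above that limit, and the smallest fold over probes is given. This and a normexp correction without the offset were added after the data were seen. Scripts were tested on simulated data. The number of arrays limits the precision.

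miRNAs named are the 12 largest differences each way that passed, were detected on all 4 arrays of the brighter type and did not overlap, up to 4 passing members of each of 16 lists, 12 defining markers, and up to 12 by size for the dose comparison. Others are marked as chosen later or belong to a list or count described in full. The members and lists were chosen with earlier results of these data known.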

Additional observations from a re-analysis of the deposited data

Results flagged for a closer look

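On 4 occasions 1 array stood apart from the other 3 of its group (Dixon's test at 95%), of 73 groups of 4 tested, a share of 5.48% where chance flags about 1 in 20. Feces replicate 3 was the array in 3 of them. It had a log2 scaled level of -2.07 for miR-6980-5p, against -1.53 to -1.52 on the others, of -5.24 for miR-30d-5p, against -4.68 to -4.60, and of -5.40 for miR-215-5p, against -3.89 to -3.75. Serum replicate 3 had a level of -2.55 for miR-30e-5p, against -3.60 to -3.55 on the others.

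The feces-serum difference at 10 Gy minus that at 0 Gy passed for 13 of the miRNAs named by rule, by a test of that difference in limma. It was 5.08 for miR-150-3p, 3.32 for let-7i-5p, 2.99 for miR-181b-5p, 2.64 for miR-7031-5p, 2.52 for miR-344i, 2.42 for miR-291a-5p, 2.29 for miR-466f-3p, 2.25 for miR-3473f, 2.24 for miR-1897-3p and 1.96 for miR-486a-5p. It was -3.65 for miR-7083-5p, -2.76 for miR-3106-5p and -2.21 for miR-3073a-5p. Most of these have at least 1 group in which no array detected the miRNA, so that the size depends on the floor.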

How the results depend on the processing

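The count of 283 passing miRNAs stayed within 1.5 times under the other settings except when only the 105 miRNAs detected on all 8 arrays were tested, where 78 passed because fewer were tested. Its split into higher and lower calls did move: 374 and 20 without scaling, 214 and 60 with control spots, 37 and 339 after normexp correction, 94 and 174 after the same correction with no offset, 223 and 119 at a floor of 50% of its value, and 169 and 114 in the authors' series table. Leaving out 1 array at a time gave 204 to 363. The replicate numbers did not pair the samples, since the deviations of same-numbered arrays correlated at -0.0971 to 0.045 and 0 arrays correlated best with their own number. With the replicate block 266 passed, and for the dose comparison 19. The difference in detected miRNAs was 306.167 to 322.5 without 1 array. The count of 21 for the doses became 7 with quantile normalization, 1 without scaling, 6 with normexp correction and 3 among miRNAs detected on all 14 arrays, and was 2 to 51 without 1 array; the cause was not tested.

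Without scaling, the feces-serum difference turned to 0.55 for miR-133a-3p, 0.41 for miR-29a-3p, 0.41 for miR-30e-5p, 0.91 for miR-6943-3p, 1.38 for miR-6924-3p, 1.14 for miR-7085-3p and 1.41 for miR-6934-3p. After normexp correction it turned to -0.0578 for miR-710, -0.00547 for miR-194-5p, -1.09 for let-7b-5p, -1.07 for let-7c-5p, -1.05 for let-7a-5p, -1.05 for let-7g-5p, -1.05 for miR-20a-5p, -0.96 for miR-17-5p, -1.05 for miR-20b-5p, -1.06 for miR-466h-3p, -1.96 for miR-669p-3p, -1.07 for miR-467f, -1.04 for miR-215-5p, -0.99 for miR-200c-3p, -0.65 for miR-150-3p, -1.05 for miR-181b-5p, -1.09 for miR-3106-5p, -1.12 for miR-7031-5p, -1.84 for miR-291a-5p, -1.99 for miR-466f-3p and -0.99 for miR-1897-3p. With no offset, an alternative added after the data were seen, it was -0.13 for let-7b-5p, -0.0913 for let-7c-5p, -0.22 for let-7a-5p, -0.44 for let-7g-5p, -0.20 for miR-20a-5p, -0.32 for miR-20b-5p, -0.72 for miR-669p-3p, -0.41 for miR-467f, -0.24 for miR-181b-5p, -0.32 for miR-3106-5p, -0.46 for miR-291a-5p and -0.86 for miR-466f-3p. For the difference between the doses, no scaling gave -0.0102 for miR-181b-5p, -0.56 for miR-291a-5p and -0.0866 for miR-1897-3p, and normexp correction gave -0.29 for let-7i-5p, -0.20 for miR-181b-5p, -0.0600 for miR-7031-5p and -0.0683 for miR-291a-5p. Over the named miRNAs and settings, 1256 values kept their side of the threshold, 79 no longer passed, 17 newly passed and 40 turned. Only miRNAs that passed under the main scaling could count as turned. The newly passing include miR-34a-5p and let-7i-5p, above 0 under the main scaling, which passed as lower after normexp correction.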

Other observations

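The control spots named hur, for which the files give no target, differed between the sample types in unequal ways. The hur_6 spots read 274 to 731 on irradiated feces arrays and 3.55 to 15.6 on irradiated serum arrays, and the hur_4 spots 20.1 to 391 and 1.37 to 14.4. The hur_2 spots read 4751 to 8367 in feces and 1436 to 12800 in serum, and overlapped. Of the dmr spots used for 1 of the scalings, dmr_285_19 read 3288 to 4617 in feces and 1698 to 2681 in serum, and dmr_6_22 5929 to 12280 in feces and 164 to 1732 in serum.

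Of the miRNAs higher in feces, 82 of 169 were detected on all 4 irradiated intestine arrays, and of those lower in feces, 62 of 114. Among miRNAs detected on all 4 feces and no serum array, 65 of 250 were detected on all irradiated intestine arrays. These include 42 of the 119 higher, and 3 of the 34 that are not read as lower. In 12 of 189 calls resting on several detected probes, the probes differed in sign or 1 showed no difference, among them miR-762 with probe differences from -0.54 to 4.82.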
